A study of Homo sapiens with 6 samples.

Results

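The G2 and mitosis genes described here are 46 genes that act between the end of DNA replication and the division of the cell. They were listed by function, by a rule that uses no measured value although earlier results of these data were known when the list was made, and were found in the deposited table by gene symbol. All 46 were present, with 148 of the 63714 transcript rows, among 27689 gene symbols in all. Each of the 46 had at least 1 FPKM (fragments per kilobase, relative to the library's total) in at least 3 libraries, and so all were among the 13576 genes tested. The value of a gene was the sum of the FPKM of its transcripts.

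RNA was sequenced from cells labelled Huh7, a hepatocellular carcinoma line, in 2 groups of 3 libraries, NACER_ASO and NC. The design text describes a knockdown of NACER, named in the series title as a lncRNA of liver that is tied to Nrf2, Plk2 and p21cip1, and the comparison asks which RNAs differ after it. NACER_ASO and NC are the only treatment names the labels give, with no dose, time, agent sequence or further explanation, and no other genotype or treatment is given for either group. Each library also carries a set number, 2, 5 or 6, and each set holds 1 library of each group. Whether a set stands for a culture of its own is not stated in the labels, so the p-values speak of the spread among these 6 libraries, which may partly be technical. The level of the NACER transcript is not analysed here, and with it any check of the knockdown.

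Cyclin A2, cyclin B1 and cyclin B2 bind the kinase CDK1, and the phosphatases CDC25B and CDC25C activate it to start mitosis. The kinetochore then attaches chromosomes to the spindle, the checkpoint proteins hold back the anaphase-promoting complex until attachment is complete, and its activator CDC20 and ubiquitin carrier UBE2C bring about the destruction of cyclin B and securin (PTTG1). Transcription of these genes peaks late in the cell cycle, through FOXM1, B-MYB and the MuvB complex, and is repressed by the DREAM complex when p21 keeps CDK activity low. In a hepatoma line their summed RNA is commonly used as a sign of how many cells divide.

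The sets differed widely in markers of the labelled line and in those of other cell types. All 13 hepatoma markers had at least 1 FPKM in all 6 libraries, but their summed FPKM ran between 1912 and 6738 in NACER_ASO and between 1915 and 6575 in NC, with the highest sums in set 5 and the lowest in set 6. In limma, 10 of the 13 rose and 2 fell in set 5 against the mean of sets 2 and 6, and 0 rose and 12 fell in set 6 against set 2 (median log2 difference -1.16). Of all genes tested, 24.1% rose and 46.6% fell in the first contrast, and 20.9% rose and 27.3% fell in the second. Single markers moved in opposite directions. APOA1, an apolipoprotein gene, had 516 FPKM in NACER_ASO and 480 in NC in set 5, 26.9 and 24.5 in set 2, and 6.78 and 5.54 in set 6. APOA2, another apolipoprotein gene, was lowest in set 5, at 65.2 FPKM in NACER_ASO and 60.2 in NC, with 518 and 538 in set 2 and 320.1 and 286 in set 6. Of 13 markers of stromal, immune and endothelial cells, 3 had at least 1 FPKM in all libraries and 6 were under 1 in all. Their summed FPKM ran between 336 and 539 in NACER_ASO and between 309 and 518 in NC. LUM, an extracellular matrix gene, was at 0.017 FPKM in NACER_ASO and 0 in NC in set 5, at 224 and 199.6 in set 2, and at 182 and 190.3 in set 6. LYZ, which encodes lysozyme, was highest in set 5, at 479 FPKM in NACER_ASO and 457 in NC, with 32.6 and 27.7 in set 2 and 67.6 and 57.9 in set 6. CD68 had 37.0, 56.6 and 66.9 FPKM in NACER_ASO sets 2, 5 and 6, against 42.9, 57.5 and 56.1 in NC. COL1A2 had 24.9, 0.012 and 36.1 FPKM in NACER_ASO, against 21.8, 0 and 33.0 in NC, in the same order of sets. The 3 with at least 1 FPKM in all libraries were CD68, LYZ and COL1A1. The 6 under 1 FPKM in all libraries were PTPRC, CD3E, DCN, PECAM1, VWF and CDH5. The part of these marker differences in the results between sets was not tested. The number of genes at 1 FPKM or more ran between 12738 and 14635 per library. The low values implied about 15.6 to 28.2 M fragments per library, a rough figure since whole reads could not be recovered.

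The 46 genes were expressed at substantial levels in every library, and their sum hardly differed between the groups. Their summed FPKM was 2258, 2154 and 2186 in NACER_ASO sets 2, 5 and 6, against 2258, 2120 and 2092 in NC sets 2, 5 and 6. The sums were equal in set 2 at this precision, and in sets 5 and 6 the NACER_ASO library was the higher. In bulk libraries, fewer dividing cells and less RNA per dividing cell cannot be told apart. The mean over the 6 libraries ran between 10.7 FPKM for CKAP2L and 174 FPKM for CKS1B. CKS1B and CKS2, small subunits of cyclin-dependent kinases, and securin, the anaphase inhibitor encoded by PTTG1, were the highest of the 46. CKS1B had 152, 179 and 171 FPKM in NACER_ASO sets 2, 5 and 6, against 182, 173 and 186 in NC sets 2, 5 and 6. CKS2 had 156, 109.8 and 207 FPKM in NACER_ASO, against 173, 99.0 and 183 in NC, in the same order of sets. PTTG1 had 138, 142 and 138 FPKM in NACER_ASO, against 145, 132 and 121.5 in NC. The groups overlapped in all 3, and CKS2 was lowest in both set 5 libraries. Genes with processed copies elsewhere in the genome can share reads with them, and this was not measured here. The 3 lowest were CKAP2L, a spindle protein, CENPA, the histone H3 variant that marks centromeres, and NUF2, a subunit of the NDC80 complex that binds microtubules. CENPA had 14.9, 10.9 and 11.1 FPKM in NACER_ASO sets 2, 5 and 6, against 12.4, 11.2 and 7.35 in NC, and these groups overlapped as well.

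**Figure D1:**
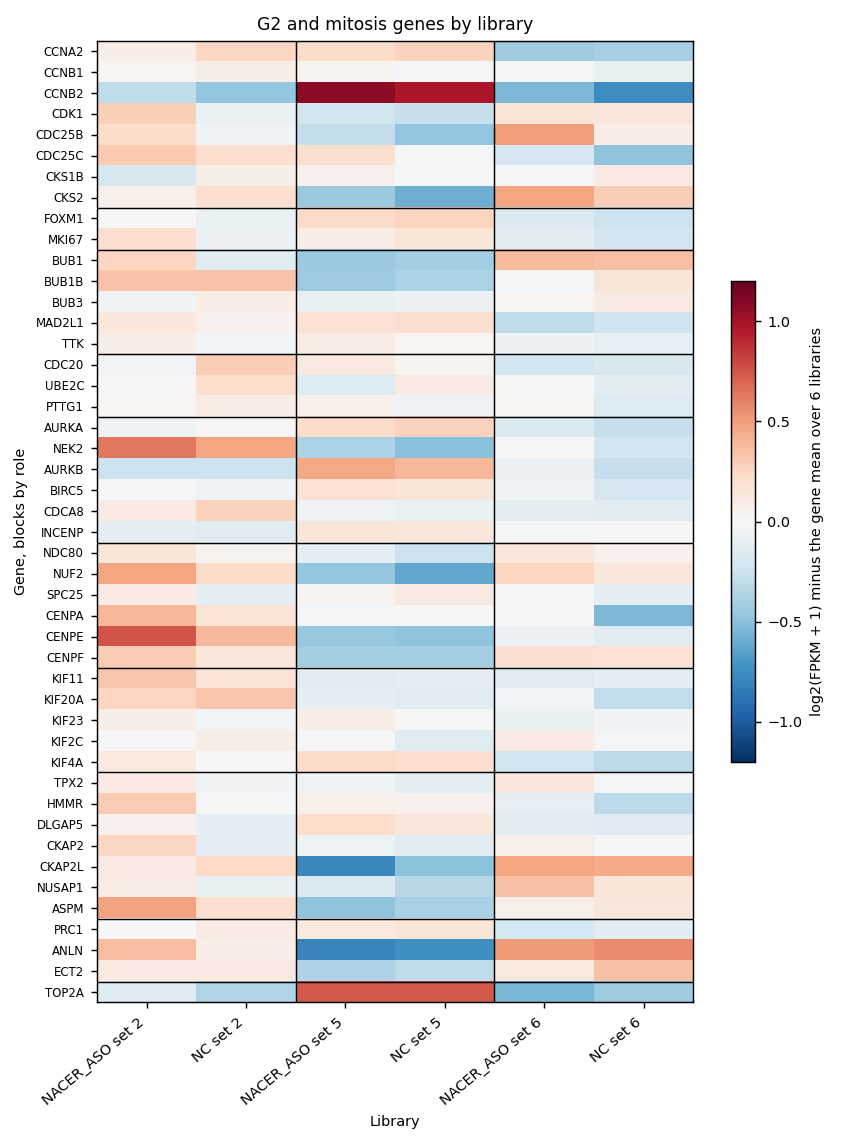
Level of each of the 46 genes (down the page, in blocks by role) in each of the 6 libraries (across, NACER_ASO left of NC within each set), as log2(FPKM + 1) minus the mean of that gene over the 6 libraries. Columns of the same set resemble each other, with CCNB2 and TOP2A highest and ANLN, NUF2 and CKAP2L lowest in both set 5 libraries.

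No gene differed between NACER_ASO and NC beyond the spread of the libraries in limma (Benjamini-Hochberg adjusted p under 0.05), which called 0 of the 46 and 0 of the 13576 genes tested, or 0% in each direction. At an unadjusted p under 0.05 it counted 20 genes (0.147%). The libraries fell into sets, and the same test with the set number as a block called 0 genes too, the smallest adjusted p being 0.0762. With the block and both libraries of set 2, 5 or 6 left out, 3, 14 and 58 of all genes were called, and 0 of the 46. In the blocked fit of all 3 sets, 6 of the 46 had an unadjusted p under 0.05 with higher values in NACER_ASO (8.85% of all genes tested) and 0 with lower values (3.57% of all genes). The 6 were CDC25B, NUSAP1, NEK2, CDC25C, CCNB2 and NUF2. The median log2 difference, NACER_ASO minus NC, was 0.06 over the 46 and 0.04 over all genes tested. Within sets 2, 5 and 6 it was 0.11, 0.025 and 0.07 over the 46, and 0.05, 0.015 and 0.06 over all genes. The difference of single genes ran between -0.14 and 0.29. NACER_ASO lay above NC in all 3 sets for 17 of the 46, or 37.0%, against 27.2% of all genes tested. It lay below NC in all 3 sets for 3 of the 46, or 6.52%, against 11% of all genes tested. The other 26 changed sides between sets. With median-of-ratios scaling 12 of the 46 lay above NC in all sets (20.4% of all genes) and 6 below (15.9% of all genes). With quantile normalization it was 17 above (19.9% of all genes) and 4 below (16.1% of all genes). With both libraries of set 5 left out, NACER_ASO lay above NC in sets 2 and 6 for 23 of the 46 (38.8% of all genes tested) and below it for 5 (16.7%). The libraries of the 2 groups did not overlap for 0 of the 46, against 1.2% of all genes with NACER_ASO higher and 0.368% with it lower.

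**Figure D2:**
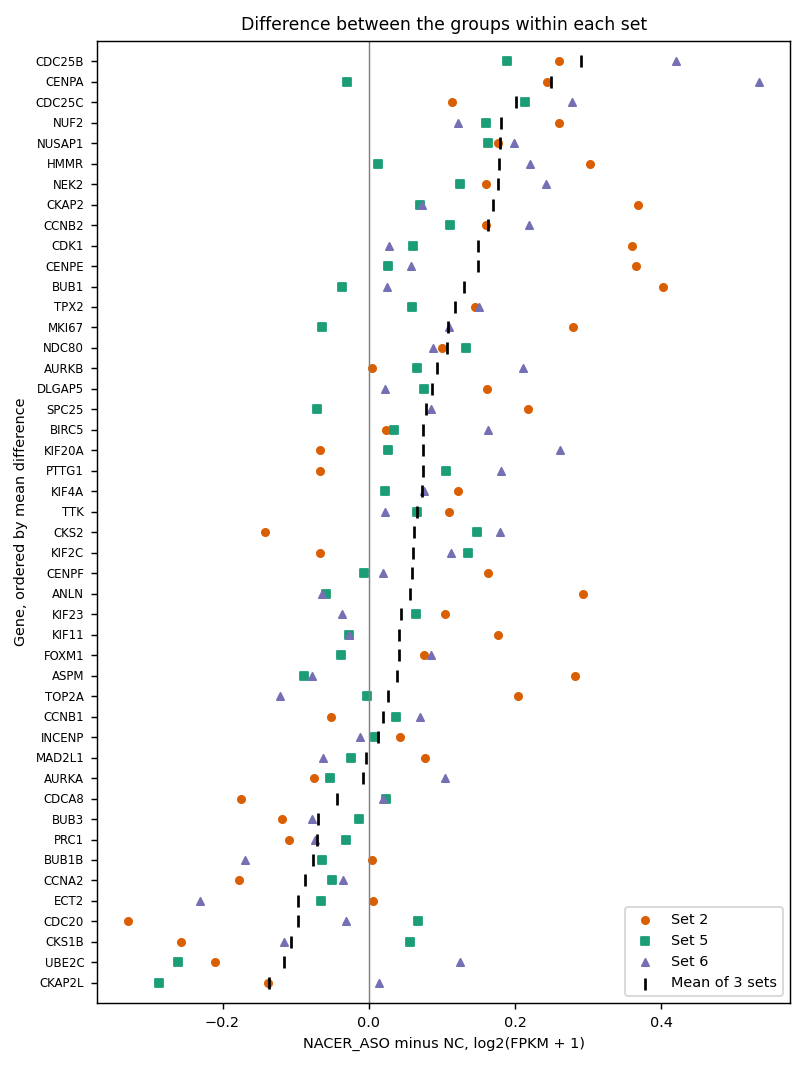
Difference in log2(FPKM + 1), NACER_ASO minus NC, for each of the 46 genes (down the page, ordered by the mean difference), with 1 point per set and a black bar for the mean of the 3 sets. The points lie between -0.33 and 0.53, and 17 genes have all 3 points right of 0 while CCNA2, BUB3 and PRC1 have all 3 left of it.

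Among the cyclins, CDK1 and its activators, 4 of 8 lay above NC in all 3 sets and 1 lay below. Of all genes tested 27.2% lay above and 11% below. CDC25B (chr20:3767419-3786768 in hg19), the phosphatase that first activates CDK1 at the entry into mitosis, had 39.1, 27.3 and 47.9 FPKM in NACER_ASO sets 2, 5 and 6, against 32.5, 23.8 and 35.6 in NC sets 2, 5 and 6. It was higher in NACER_ASO in every set, by 0.26, 0.19 and 0.42 on the log2 scale, while the groups overlapped because set 5 was low in both. The mean difference was 0.29, with an SE of 0.27 and a 95% confidence interval of -0.36 to 0.94. The two-sided exact permutation p was 0.4, and 3 against 3 libraries cannot go below 0.1. Without 1 library the difference ran between 0.11 (without NACER_ASO set 6) and 0.51 (without NACER_ASO set 5), and it was 0.12 without NC set 5. With the set as a block the SE was 0.069, the 95% confidence interval 0.12 to 0.46 and the limma adjusted p 0.322. CDC25C, a second activating phosphatase of CDK1, had 16.04, 14.7 and 10.9 FPKM in NACER_ASO and 14.8, 12.6 and 8.84 in NC. Its mean log2 difference was 0.20 (SE 0.26, and an SE of 0.072 with the set as a block). That difference was 0.096 without NACER_ASO set 2 and 0.011 without NC set 6. CCNA2, which encodes cyclin A2, had 34.2, 38.0 and 23.8 FPKM in NACER_ASO and 38.8, 39.4 and 24.4 in NC. Its mean log2 difference was -0.09 (SE 0.28, and an SE of 0.062 with the block). Both genes kept 1 side of NC in 3 of 3 sets, and both were lowest in set 6 in either group. The sign of CCNA2 turned without NC set 2 (0.017), NC set 5 (0.027) or NACER_ASO set 6 (0.11). Leaving out 1 library leaves the sets unequal between the groups. CCNB2 and CDK1 also lay above NC in all sets. CCNB1, CKS1B and CKS2 did not keep a side.

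In the checkpoint group, TTK lay above NC in all 3 sets and BUB3 below, and the other 3 of the 5 changed sides. BUB3, which brings checkpoint kinases to kinetochores, had 80.3, 77.6 and 83.9 FPKM in NACER_ASO sets 2, 5 and 6 and 87.3, 78.4 and 88.5 in NC. Its mean log2 difference was -0.07 (SE 0.15, and an SE of 0.055 with the set as a block). That difference ran between -0.12 without NC set 5 and -0.038 without NC set 6. CDC20, UBE2C and securin (PTTG1) all changed sides. CDC20 had 118, 129.6 and 103 FPKM in NACER_ASO and 148, 124 and 105.6 in NC, so the largest gap was in set 2. UBE2C had 132, 118 and 131 FPKM in NACER_ASO and 153, 141 and 120.2 in NC, lower in NACER_ASO in sets 2 and 5 and higher in set 6. The mean log2 differences were -0.10 for CDC20 (SE 0.19, and 0.026 without NC set 2) and -0.12 for UBE2C (SE 0.17, and -0.062 and -0.039 without NACER_ASO set 5 and NC set 2).

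Of the mitotic kinases and the chromosomal passenger complex, which corrects faulty attachments, NEK2, AURKB and BIRC5 lay above NC in all 3 sets and the other 3 changed sides. NEK2, a kinase that separates the centrosomes, had 51.2, 25.0 and 33.1 FPKM in NACER_ASO sets 2, 5 and 6 and 45.7, 22.8 and 27.8 in NC. Its mean log2 difference was 0.18 with an SE of 0.36, and an SE of 0.060 with the set as a block. At the centromere and kinetochore, NDC80, NUF2 and CENPE lay above NC in all sets and 3 changed sides. NUF2 had 16.9, 8.36 and 14.4 FPKM in NACER_ASO and 13.96, 7.38 and 13.1 in NC. Its mean log2 difference was 0.18 (SE 0.35, and an SE of 0.072 with the block). Without NACER_ASO set 2 or NC set 5 the sign turned for both, to -0.012 and -0.085 for NUF2 and -0.095 and -0.032 for NEK2. Either omission leaves the sets unequal between the groups, while within each set both genes were higher in NACER_ASO. In both genes the set 5 libraries were the lowest of either group, and the gap between sets was wider than the gap between the groups.

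Of the spindle and microtubule-associated genes, 5 of 7 lay above NC in all 3 sets as deposited, against 27.2% of all genes tested. The 5 were TPX2, HMMR, DLGAP5, CKAP2 and NUSAP1. NUSAP1 (chr15:41624892-41673248 in hg19), which bundles microtubules near chromosomes, had 52.9, 43.9 and 63.3 FPKM in NACER_ASO sets 2, 5 and 6 and 46.7, 39.1 and 55.0 in NC, a log2 difference of 0.18, 0.16 and 0.20 in the 3 sets. The difference between the group means was 0.051 without NACER_ASO set 6 and 0.058 without NC set 5, which leaves the sets unequal between the groups. HMMR, a spindle assembly factor, had 24.8, 20.9 and 18.6 FPKM in NACER_ASO and 19.9, 20.7 and 15.8 in NC, with almost no gap in set 5. Its mean log2 difference was 0.18 (SE 0.20, and an SE of 0.079 with the set as a block). That difference was 0.072 and 0.064 without NACER_ASO set 2 and NC set 6. With the most abundant HMMR transcript in place of the sum, that difference was -0.035. Among the kinesin motors KIF4A lay above NC in all sets and the other 4 changed sides. In cytokinesis, PRC1, which bundles microtubules of the central spindle, lay below NC in all sets, at 56.6, 61.6 and 48.9 FPKM in NACER_ASO and 61.1, 62.9 and 51.5 in NC. Its mean log2 difference was -0.07 (SE 0.17, and an SE of 0.055 with the block), and it was 0.018 without NACER_ASO set 6. ANLN and ECT2 changed sides, as did FOXM1, MKI67 and TOP2A. The limma adjusted p was above 0.99 for each gene named in the comparison of the groups, and between 0.322 and 0.985 with the block over the 46.

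CKAP2 stood out at the level of its transcripts. CKAP2, a microtubule-associated protein of the spindle (chr13:53029495-53050766 in hg19), had 24.4, 19.4 and 21.3 FPKM in NACER_ASO sets 2, 5 and 6 and 18.7, 18.5 and 20.2 in NC. Its mean log2 difference as a gene was 0.17 (SE 0.17, and an SE of 0.084 with the set as a block). That difference was 0.086 without NACER_ASO set 2. The file lists 4 CKAP2 transcripts. NM_001286686, which starts further downstream (chr13:53030107-53050766 in hg19) than the others, had 13.4, 6.13 and 9.66 FPKM in NACER_ASO sets 2, 5 and 6, against 1.39, 0.746 and 1.31 in NC sets 2, 5 and 6. The lowest NACER_ASO library was above the highest NC library by several fold. The means were 9.74 ± 3.64 FPKM in NACER_ASO and 1.15 ± 0.351 in NC (SD, n = 3 each), a ratio of 8.48. The NC values lay near 1 FPKM, where depth limits a transcript most, so this ratio is uncertain. Log2 differences were taken with 1 added to each FPKM, which makes the change smaller than the ratio. The log2 difference was 2.28 (SE 0.35, 95% confidence interval 1.44 to 3.11), and it was 2.59, 2.03 and 2.205 in sets 2, 5 and 6. NM_018204, the most abundant CKAP2 transcript in NC, had 4.85, 4.62 and 5.07 FPKM in NACER_ASO, against 11.04, 11.3 and 13.8 in NC. Here all 3 NACER_ASO libraries were below all 3 NC libraries, by -1.04, -1.13 and -1.28 on the log2 scale in sets 2, 5 and 6. The means were 4.84 ± 0.224 FPKM in NACER_ASO and 12.03 ± 1.502 in NC, and the log2 difference was -1.15 (SE 0.24, 95% confidence interval -1.72 to -0.59).

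**Figure D3:**
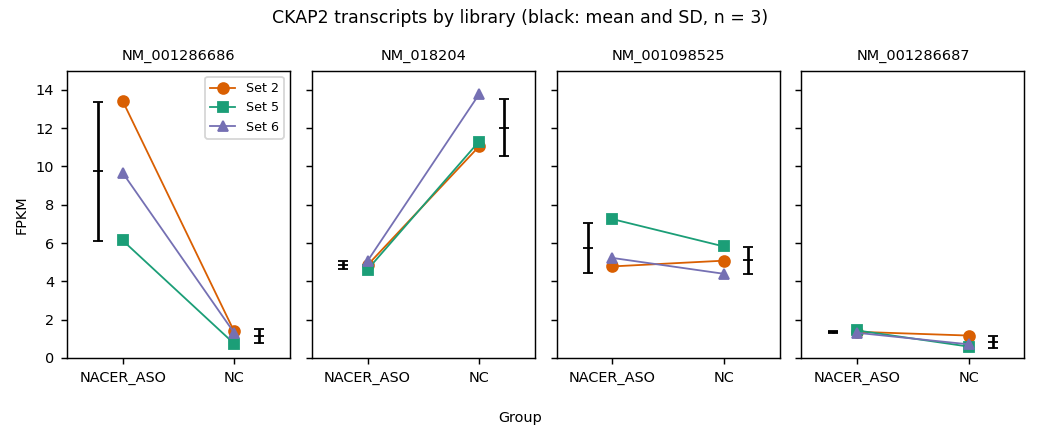
FPKM of the 4 CKAP2 transcripts in each library, with NACER_ASO left of NC, lines that join the libraries of a set, and black bars for the mean and SD of 3 libraries. NM_001286686 averaged 9.74 FPKM in NACER_ASO and 1.15 in NC, NM_018204 averaged 4.84 and 12.03, and the other 2 moved by less than 1 FPKM between the group means.

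Neither transcript passed adjustment over the 23390 transcripts tested, of which limma called 0 (0%), with and without the block. The adjusted p was 0.9999 for both, and 0.749 with the block. By unadjusted p in limma, NM_001286686 ranked 5 of the 23390 without the block and 2 with it. NM_018204 ranked 17 without the block and 8 with it. Of all transcripts tested, 0.941% had an unadjusted p under 0.05 without the block. In the exact permutation test, two-sided, each had p = 0.1, the smallest that 3 against 3 libraries can give. These transcripts were singled out with their values known, so these ranks describe their place in the table and are no independent test. With both libraries of set 5 left out, the log2 difference was 2.40 for NM_001286686 and -1.16 for NM_018204.

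As a share of all CKAP2 FPKM, NM_001286686 made up 54.9%, 31.6% and 45.4% in NACER_ASO sets 2, 5 and 6, against 7.43%, 4.04% and 6.504% in NC. NM_018204 made up 19.9%, 23.7% and 23.8% in NACER_ASO, against 59.1%, 61.2% and 68.2% in NC. In each set NM_001286686 thus had the larger share of the 2 in NACER_ASO, and NM_018204 in NC. In NACER_ASO set 5 the largest share of all was that of NM_001098525, at 37.3%. Their summed FPKM was 14.6 ± 3.76 in NACER_ASO and 13.2 ± 1.65 in NC (SD, n = 3 each), so the sum differed by less than the SD. The other transcripts moved less. NM_001098525 averaged 5.75 ± 1.32 FPKM in NACER_ASO and 5.10 ± 0.714 in NC, a log2 difference of 0.14 (SE 0.28), and the groups overlapped. NM_001286687 averaged 1.37 ± 0.062 FPKM in NACER_ASO and 0.826 ± 0.305 in NC, a log2 difference of 0.39 (SE 0.25), and the groups did not overlap. FPKM estimates divide the reads of shared exons among transcripts, so a level of 1 isoform is less certain than that of the gene.

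In the GENCODE v29 models on GRCh38 that match these RefSeq transcripts, NM_001286686 begins 533 bases downstream of the most upstream CKAP2 start, a distance that the hg19 loci of the file put somewhat higher. It has a first exon of its own and shares all 8 later exons with NM_018204. Its coding part starts at an ATG in exon 2 and holds 634 codons, 48 fewer than the 682 of NM_018204. NM_001098525 shares 6 of its 8 later exons with NM_018204. Its exon 3 begins 3 bases earlier, and its first and last exons have other outer ends. The model of NM_001286687 ends after exon 6 with 494 codons. The bases around the junction of exons 2 and 3 are shown because they hold the start codon of NM_001286686 and the 3 bases that only NM_001098525 of the 4 models holds in exon 3. They run 5′ to 3′ on the plus strand, from chr13:52456584-52456607 into chr13:52460899-52460916 (GRCh38), or chr13:52460896-52460916 for NM_001098525. Capitals mark the ATG and the 3 extra bases.
NM_001286686 and NM_018204: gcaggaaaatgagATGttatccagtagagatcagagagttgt
NM_001098525: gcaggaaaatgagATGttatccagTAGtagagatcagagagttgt
The 120 bases that end directly before the GENCODE start of NM_001286686, on the plus strand at chr13:52455852-52455971 (RefSeq sequence, GRCh38.p14), are shown because they lie upstream of the first exon found in no other CKAP2 transcript of the file. They hold none of the promoter motifs searched below, hence no capitals.
CKAP2 upstream of NM_001286686: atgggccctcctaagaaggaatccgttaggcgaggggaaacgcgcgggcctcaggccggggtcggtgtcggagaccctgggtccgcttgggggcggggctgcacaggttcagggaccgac

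**Figure D4:**
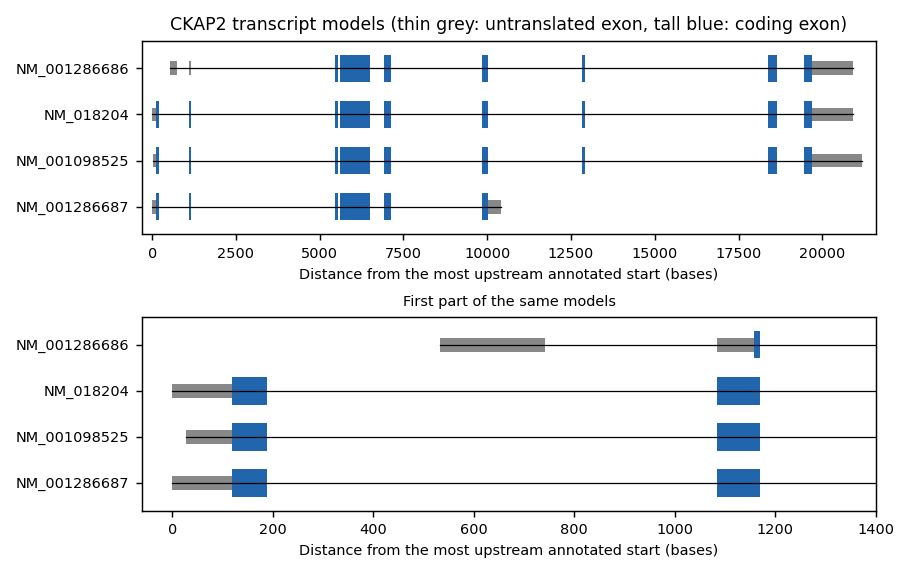
GENCODE v29 models of the 4 CKAP2 transcripts, with distance in bases from the most upstream annotated start across the page, thin grey boxes for untranslated and tall blue boxes for coding exons, and the first part enlarged below. NM_001286686 starts 533 bases downstream with a first exon of its own and is coding from exon 2, while the other 3 are coding from exon 1.

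Few other transcripts of the 46 genes separated the groups. Of the 148 transcripts, 118 were tested, and the libraries of the 2 groups did not overlap for 5 with NACER_ASO higher (2.04% of all transcripts tested) and 2 with it lower (1.22%). CKAP2 held 2 of the 5 and 1 of the 2. The rest were NM_181800 and NR_104036 of UBE2C and NM_004219 of PTTG1, higher in NACER_ASO, and NM_001349098 of ECT2, lower, all named after their values were seen. NM_181800 had 4.19, 7.68 and 3.63 FPKM in NACER_ASO sets 2, 5 and 6, against 2.51, 2.96 and 2.96 in NC. NM_004219, the main securin transcript, had 120.2, 135 and 126 FPKM in NACER_ASO, against 114, 115 and 112 in NC. NM_001349098 had 1.36, 2.49 and 2.49 FPKM in NACER_ASO, against 3.21, 2.90 and 3.25 in NC. NR_104036, a non-coding transcript by its identifier, had 1.53, 1.33 and 1.33 FPKM in NACER_ASO, against 0.242, 0.399 and 0.998 in NC, the largest ratio of means of these (2.56) at a low level. The ratio was 1.84 for NM_181800, which made up 4.16% of UBE2C in NACER_ASO and 2.07% in NC. The share of the gene held by a transcript did not overlap between groups for 8 of 101 transcripts of the 46 genes, or 7.92%, against 5.98% of all transcripts of genes with more than 1. With a mean difference of at least 20 percentage points as well, 2 remained, both of CKAP2, against 0.928% of all. Mean shares also differed by more than 20 points in CKAP2L and CENPE, where the groups overlapped. NM_152515 averaged 60.5% of CKAP2L in NACER_ASO and 92.8% in NC. NM_001813 averaged 44.6% of CENPE in NACER_ASO and 18.3% in NC.

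Between sets, many of the 46 genes differed by far more than between the groups. In set 5, against the mean of sets 2 and 6, 12 of the 46 (26.1%) rose and 15 (32.6%) fell in limma, where 24.1% of all genes rose and 46.6% fell, or 70.7% in either direction. The 12 were CCNA2, CCNB2, FOXM1, MAD2L1, AURKA, AURKB, BIRC5, INCENP, KIF4A, DLGAP5, PRC1 and TOP2A. The 15 were CDK1, CDC25B, CKS2, BUB1, BUB1B, NEK2, NDC80, NUF2, CENPE, CENPF, CKAP2L, NUSAP1, ASPM, ANLN and ECT2. The median log2 difference was -0.03 over the 46 and -0.22 over all genes. With the libraries rescaled by median-of-ratios the all-gene median moved to -0.07 and the 46 lay 0.21 above it, against 0.19 above it as deposited, and with quantile normalization 0.016 above it. Rescaling raised the count of members that rose from 12 to 20 under median-of-ratios and 17 under quantile normalization, and 13 and 14 fell. Only 5 rose without the NACER_ASO library of set 5 and 4 without the NC library of set 5, which leaves 1 library in that set. The 2 contrasts between sets share the libraries of sets 2 and 6, and the sets are not explained in the labels. Each set occurs once, as 1 NACER_ASO and 1 NC library. The p-values between sets therefore rest on the spread within sets, and whether a set's rises and falls would recur was not measured.

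Among the cyclins, CCNB2 (chr15:59397284-59417244 in hg19) rose most of all 46. It had 69.2 and 64.0 FPKM in NACER_ASO and NC of set 5, against 25.9 and 23.1 in set 2 and 21.8 and 18.6 in set 6, for NACER_ASO and NC in that order. Both set 5 libraries were far above the other 4. The log2 difference was 1.54 (SE 0.063, limma adjusted p = 1.25e-05), and the ratio of mean FPKM 2.98. CCNB1, which encodes the other mitotic B-type cyclin, had set means of 81.3 FPKM in set 5 and 83.5 and 77.7 in sets 2 and 6, a log2 difference of 0.01 (SE 0.059, 95% confidence interval -0.13 to 0.16). CKS2 fell by 0.77 on the log2 scale (SE 0.084, adjusted p = 0.000402), with set means of 104 FPKM in set 5 and 164 and 195 in sets 2 and 6. CDK1 and CDC25B fell and CCNA2 rose, so the group of 8 had 2 higher and 3 lower.

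TOP2A (chr17:38544773-38574202 in hg19), the topoisomerase that untangles sister chromatids, rose as well. It had 105.3 and 105.4 FPKM in NACER_ASO and NC of set 5, against 56.3 and 48.8 in set 2 and 42.7 and 46.6 in set 6, a log2 difference of 1.11 (SE 0.081, adjusted p = 8.85e-05). AURKB, the kinase of the chromosomal passenger complex, had 75.2 and 71.8 FPKM in NACER_ASO and NC of set 5, against 45.4 and 45.2 in set 2 and 51.7 and 44.6 in set 6 (0.64, SE 0.068, adjusted p = 0.000363). FOXM1, a transcription factor of these genes, had 53.4 and 54.8 FPKM in set 5, against 45.2 and 42.9 in set 2 and 40.1 and 37.8 in set 6 (0.38, SE 0.062, adjusted p = 0.00231). In all 3 genes both set 5 libraries were above the other 4. The AURKB call ended with its most abundant transcript alone (1.37, adjusted p = 0.0755) and the FOXM1 call without NC set 5 (0.32, adjusted p = 0.0698). Of the 6 genes of the kinase and passenger group 4 rose and 1, NEK2, fell, where 24.1% of all genes rose.

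ANLN (chr7:36429412-36493401 in hg19), the scaffold of the cytokinetic ring, fell most. It had 29.9 and 31.2 FPKM in NACER_ASO and NC of set 5, against 68.5 and 55.7 in set 2 and 75.2 and 78.7 in set 6, a log2 difference of -1.15 (SE 0.092, adjusted p = 0.000125). CKAP2L had 5.48 and 6.90 FPKM in set 5, against 10.9 and 12.1 in set 2 and 14.4 and 14.2 in set 6 (-0.95, SE 0.092, adjusted p = 0.000257), and this call ended with its most abundant transcript alone (-0.93, adjusted p = 0.0642). NUF2 fell by 0.81 on the log2 scale (SE 0.076, adjusted p = 0.000229) and NEK2 by 0.66 (SE 0.063, adjusted p = 0.000242), and for each of these 4 genes both set 5 libraries were below the other 4. Of the 6 centromere and kinetochore genes 0 rose and 4 fell (NDC80, NUF2, CENPE and CENPF), where 46.6% of all genes fell. Subunits of the same complex differed, since NUF2 and NDC80 fell while SPC25 had set means of 17.2 FPKM in set 5 and 16.3 and 15.6 in sets 2 and 6 (0.10, SE 0.084). The differences between these subunits were not tested.

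In set 6, against set 2, 1 of the 46 (2.17%) rose and 15 (32.6%) fell, where 20.9% of all genes rose and 27.3% fell, or 48.2% in either direction. The median was -0.12 over the 46 and -0.04 over all genes, beside the fall of 12 of 13 hepatoma markers in set 6, whose part in these results was not tested. NUSAP1 was the 1 that rose, at 63.3 and 55.0 FPKM in NACER_ASO and NC of set 6, against 52.9 and 46.7 in set 2 (0.24, SE 0.066, adjusted p = 0.0260). This call ended with quantile normalization (adjusted p = 0.0968), with the most abundant transcript (adjusted p = 0.0570), with set as the only term (adjusted p = 0.106) and without both libraries of set 5 (adjusted p = 0.0993). It also ended without any 1 library of sets 5 or 6, at adjusted p of 0.0984 and 0.0967 without NACER_ASO and NC of set 5, and 0.174 and 0.133 without NACER_ASO and NC of set 6. ANLN, CKAP2L and BUB1, the next by p, had log2 differences of 0.31, 0.30 and 0.31, with adjusted p of 0.0540, 0.0619 and 0.0755. NEK2 fell by 0.66 on the log2 scale (SE 0.073, adjusted p = 0.00168), with 33.1 and 27.8 FPKM in set 6 against 51.2 and 45.7 in set 2. CCNA2 had 23.8 and 24.4 FPKM in set 6, against 34.2 and 38.8 in set 2 (-0.58, SE 0.076, adjusted p = 0.00262). CDC25C had 10.9 and 8.84 FPKM in set 6, against 16.04 and 14.8 in set 2 (-0.60, SE 0.089, adjusted p = 0.00371). CENPE, a kinesin that moves chromosomes to the spindle equator, had 11.2 and 10.7 FPKM in set 6, against 20.6 and 15.8 in set 2 (-0.67, SE 0.11, adjusted p = 0.00558). The CENPE call ended with its most abundant transcript alone (-0.27, adjusted p = 0.550). In all 4 both set 6 libraries were below both set 2 libraries. The others that fell were CCNB2, BUB1B, MAD2L1, CDC20, CDCA8, CENPA, KIF11, KIF20A, KIF4A, HMMR and PRC1. Of the 5 genes grouped as kinesin motors 3 fell, with CENPE counted among the kinetochore genes instead. The count of 15 was 6 without either library of set 6, and 9 without either or both libraries of set 5.

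**Figure D5:**
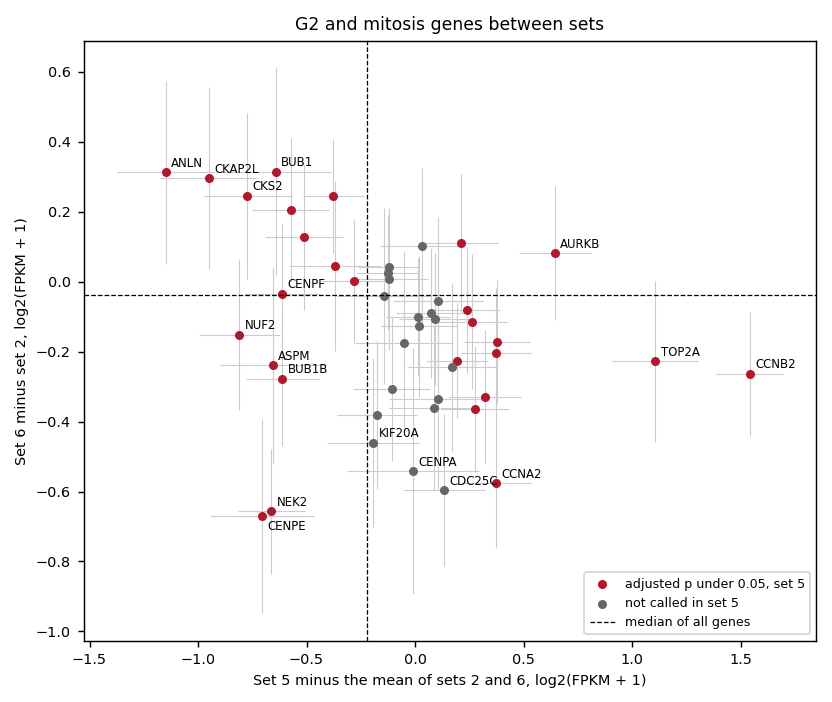
Difference in log2(FPKM + 1) of each of the 46 genes for set 5 minus the mean of sets 2 and 6 (across) and for set 6 minus set 2 (up), with grey bars for 95% confidence intervals, red for genes called in set 5 and dashed lines at the median of all genes tested. CCNB2 at 1.54 and TOP2A at 1.11 lie far right, ANLN at -1.15 far left, and NEK2 and CENPE are low on both axes.

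Promoters of these genes are known for the cell cycle genes homology region (CHR), which binds the MuvB core of the DREAM and B-MYB complexes, and for CCAAT boxes bound by NF-Y. RefSeq promoter windows (GRCh38.p14), 250 bases before to 50 after a start, were at hand for 39 of the 46 genes and for 9970 genes tested. The motifs searched on both strands were TTTGAA and TTTAAA for the CHR, CCAAT, and TTTCGCGC, TTTGGCGC or TTTCCCGC for E2F. TTTGAA was in a window of 28 of the 39 genes (71.8%) and of 13.8% of the genes tested. TTTGAA or TTTAAA together with CCAAT was found in 27 (69.2%) and in 9.04% of the genes tested. CCAAT in at least 2 places was found in 24 (61.5%), against 16.3%, and an E2F motif in 3 (7.69%), against 5.61%. The first base of TTTGAA lay within 50 bases of the start in 24 of the 28, with a median position of -21. A match is a description of letters and not of binding. The sites are shown for genes that moved most between sets, in either direction, and for CDC20, with the CHR letters in capitals, read from the opposite strand in TOP2A, 5′ to 3′ on the gene's strand.
CCNB2 (chr15:59105105-59105134, plus strand): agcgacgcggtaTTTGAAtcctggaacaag
TOP2A (chr17:40418030-40418059, minus strand): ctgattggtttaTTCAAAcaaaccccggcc
ANLN (chr7:36389830-36389859, plus strand): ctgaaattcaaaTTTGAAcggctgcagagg
NUF2 (chr1:163321958-163321987, plus strand): ggaggcggcaagTTTGAAaagtgatgacgg
CKAP2L (chr2:112764609-112764638, minus strand): acaggcgcggcgTTTGAAgaaaaactgtca
CDC20 (chr1:43358904-43358933, plus strand): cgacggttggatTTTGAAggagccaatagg
The motif was thus present in genes that rose in set 5 (CCNB2 and TOP2A) and in genes that fell there (ANLN, NUF2 and CKAP2L). The windows of CCNA2, AURKB, BUB1, NEK2 and CKAP2 held neither TTTGAA nor TTTAAA, which says only that these letters are not in those windows. The CKAP2 window lies at the downstream start and not at the start of NM_018204.

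Other G2 and mitosis genes were 56 outside the 46. NACER_ASO lay above NC in all 3 sets for 16 (28.6%, against 27.2% of all genes tested) and below for 2 (3.57%, against 11%), with a median of 0.07 and 0 called. With the block, TACC3 and CENPH (2 of 56) had an unadjusted p under 0.05 with higher values in NACER_ASO, against 8.85% of all genes. WEE1 (1 of 56) had one with lower values, against 3.57% of all genes. SKA3, of a kinetochore coupling complex, was not among these. It had 16.1, 13.3 and 14.2 FPKM in NACER_ASO sets 2, 5 and 6, against 12.2, 12.5 and 13.4 in NC. WEE1, the kinase that inhibits CDK1, had 18.7, 8.55 and 19.7 FPKM in NACER_ASO, against 24.7, 9.88 and 21.7 in NC. SKA3 was higher and WEE1 lower in NACER_ASO in each set. In set 5, against sets 2 and 6, 12 of the 56 rose (21.4%, against 24.1% of all genes) and 19 fell (33.9%, against 46.6%), with CCNF at 1.12 and DEPDC1B at 0.85 among the higher and GTSE1 at -1.31 and WEE1 at -1.12 among the lower on the log2 scale. In set 6, against set 2, 4 rose and 15 fell, where 20.9% of all genes rose and 27.3% fell.

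The regulators of the DREAM and MuvB complexes and of E2F were 22 genes, with 0 called. Of the 22, 9 (40.9%) lay above NC in all 3 sets and 0 below, against 27.2% and 11% of all genes tested. With the block, 5 had an unadjusted p under 0.05 with higher values in NACER_ASO and 0 with lower values. Over all genes the shares were 8.85% and 3.57%. The 5 were LIN37, MYBL1, MYBL2, E2F1 and NFYB. MYBL2 (B-MYB) had 69.9, 86.5 and 82.7 FPKM in NACER_ASO sets 2, 5 and 6, against 59.5, 79.9 and 74.0 in NC. LIN52, a MuvB core subunit, had 6.93, 7.39 and 7.77 FPKM in NACER_ASO sets 2, 5 and 6, against 4.72, 6.82 and 7.07 in NC, and NFYB, an NF-Y subunit, 13.3, 9.47 and 9.49 in NACER_ASO, against 11.2, 7.96 and 7.72 in NC. In set 5, where 24.1% of all genes rose and 46.6% fell, 8 of the 22 rose (36.4%) and 5 fell (22.7%), with TFDP1 at 0.75 and E2F1 at 0.57 and with the repressor E2F7 at -2.07 and MYBL1 at -1.61. Condensin and cohesin genes rose in 4 (21.1%) and fell in 9 (47.4%) of 19 cases in set 5, near the shares of all genes, with the condensin subunit genes NCAPD2 at 1.11 and NCAPD3 at -1.01. Of 15 anaphase-promoting complex genes, 2 rose (13.3%) and 6 fell (40%) in set 5. In set 6 against set 2, 5 of them rose (33.3%) and 1 fell (6.67%), where 20.9% of all genes rose and 27.3% fell. DNA replication and S phase genes, which are transcribed earlier in the cycle, rose in 19 (46.3%) and fell in 10 (24.4%) of 41 cases in set 5, a median of 0.15 where that of all genes was -0.22, with TYMS at 1.17 and CDC45 at -1.71. Between the groups 0 of the 41 were called. In all sets 16 (39.0%) lay above and 3 (7.32%) below NC, against 27.2% and 11% of all genes tested. With the block, 6 of the 41 had an unadjusted p under 0.05 with higher values in NACER_ASO and 0 with lower values. Of 8 G1 cyclin and kinase genes tested, 3 rose (37.5%) and 3 fell (37.5%) in set 5, with CCND1 at 0.84 and CCNE2 at -1.40. No difference between these lists was tested.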

How the data were processed

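The authors deposited FPKM values per RefSeq transcript with gene symbol, length and hg19 locus, according to the file headers. The hg19 build, StringTie 1.3.3b, Bowtie2 2.2.6 and FastQC 0.11.5 are named per the submitters' processing notes. What each did, with which settings, and whether strand was used is not given in the sources used here. Per the labels' protocols, RNA was extracted with Trizol and libraries were made with a stranded mRNA kit. FPKM is relative to the library, so a change of all RNA per cell would not be seen, and no count model was fitted.

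FPKM was summed per gene symbol. Genes reaching 1 FPKM in 3 or more libraries were tested as log2(FPKM + 1), which understates changes of low genes, in limma 3.58.1 under R 4.3.3 with a trend of variance on level, two-sided, with Benjamini-Hochberg adjustment at 0.05 over all genes or transcripts. NACER_ASO was compared with NC with the group as the only term, and sets with set and group as terms. Errors are SD, SE or 95% confidence intervals. The set numbers pair the libraries. The deviations of the NACER_ASO and NC libraries from their group means had correlations over genes of 0.90, 0.97 and 0.90 within sets 2, 5 and 6, so the set was also used as a block. Single genes were compared by exact permutation. The fits were tested on simulated data.

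The members, the lists, the transcripts of CKAP2 and the tests were chosen with earlier results of these data known. Named genes were the 6 in each direction with the largest mean difference on 1 side of NC in all 3 sets (filled by smallest p), the 4 in each direction with the smallest p in each contrast of sets, the 3 highest and 3 lowest, CKAP2, CKS1B, CKS2 and PTTG1, and from other lists the 2 in each direction with the smallest p, of which some are printed. The settings tried were a pseudocount of 0.1, no filter, a filter of 5 FPKM, median-of-ratios, quantile normalization, the block, set as the only term, the most abundant transcript, and each library or set left out. CKAP2 models come from GENCODE v29, matched through its RefSeq identifiers, and promoter windows from RefSeq.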

Additional observations from a re-analysis of the deposited data

Results flagged for a closer look

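Some differences between NACER_ASO and NC took opposite signs in different sets among the genes and transcripts described, with 1 library of each group in a set, and the difference between sets was not tested. The log2 difference of UBE2C was -0.21, -0.26 and 0.12 in sets 2, 5 and 6. That of CKS1B was -0.26, 0.056 and -0.12 in the same order of sets. That of CDC20 was -0.33, 0.067 and -0.031. For the CKAP2 transcript NM_001098525 it was -0.073, 0.27 and 0.21.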

How the results depend on the processing

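With set number as the replicate block, the values were 0 called genes and 0 called transcripts, as without it, and a median over the 46 of 0.06. With the block and both libraries of set 2, 5 or 6 left out, 3, 14 and 58 of all genes were called, and 0 of the 46. With the block and without set 2, CDC20 turned to 0.018. Median-of-ratios gave 20 of the 46 higher in set 5, 3 higher in set 6 and 6 below NC in all 3 sets. With the most abundant transcript standing for the gene, set 6 against set 2 gave 3752 called genes, with 0 of the 46 higher and 9 lower, and the sign turned for HMMR (-0.035) and CKAP2 (-1.15). A filter of 5 FPKM gave 4310 called genes in set 6 against set 2. With both libraries of set 5 left out, a setting chosen after seeing the data, 0 of the 46 were higher and 9 lower in set 6, and 5 lay below NC in sets 2 and 6. The share of higher genes among those called in set 5 was 34.1%, against 45.1% with median-of-ratios and 51.1% with quantile normalization. In set 6 it was 43.4%, against 56.6% with quantile normalization, 30.6% with no filter and 55.5% with the filter of 5 FPKM. The adjusted p of the CKAP2 transcripts NM_001286686 and NM_018204 ran between 0.749 and 1 over all settings tried. The cause of these changes was not tested.

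Leaving out 1 library at a time gave 4 to 13 of the 46 higher in set 5, and, in set 6 against set 2, 0 to 3 higher, 6 to 13 lower and 4364 to 5961 called genes. It also leaves the sets unequal between the groups. The median over the 46 then ran between 0.024 and 0.098. NUF2 ran between -0.085 and 0.46 and NEK2 between -0.095 and 0.45, negative without NACER_ASO set 2 or NC set 5. CCNA2 ran between -0.31 and 0.11, positive without NACER_ASO set 6, NC set 2 or NC set 5. PRC1 ran between -0.16 and 0.018 (positive without NACER_ASO set 6), CDC20 between -0.22 and 0.026 (positive without NC set 2) and CKAP2 NM_001098525 between -0.018 and 0.24 (negative without NACER_ASO set 5). The count on 1 side of NC in all 3 sets has no value without a library. In set 6 against set 2, ANLN was called with median-of-ratios, with set as the only term and without NACER_ASO set 2, CKAP2L with both rescalings, and BUB1 without NACER_ASO set 2. Depth limits the lowest transcripts most, at or under about 1 FPKM.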
